A study of Mus musculus with 4 samples.

Results

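The thrombospondins are a family of 5 secreted calcium-binding glycoproteins, encoded in the mouse by Thbs1, Thbs2, Thbs3, Thbs4 and Comp, and Cd36 encodes a cell surface receptor for some of them. These 6 genes were followed in MC38 cells, a line of murine colon adenocarcinoma. In some of the cells CRISPR-Cas9 had knocked out Mgat5, which encodes a Golgi enzyme of N-glycan branching. All 6 genes had a probe set on the Clariom S mouse array, exactly 1 each, out of 22206 probe sets for 19505 named genes. The family was chosen by gene name with its levels on these arrays already known, the level of Thbs2 in knockout clone 1 above all, so the values of these 6 genes are given as a description and carry no test.

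Total RNA was amplified, labelled with biotin and hybridised. The knockout group held clone 1 and clone 2, each labelled as a clone of Mgat5 knockout cells, and the control group held cells with an empty vector (MOCK) and control MC38 cells (WT), with 1 array each and n = 2 per group. Both knockout lines are clones and neither control is labelled as a clone, so the effects of cloning and of the knockout cannot be told apart. The sources used here do not give the guide, the vector or the way clones were selected, and a cell label naming the knockout stands on all 4 samples, the controls included.

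Thrombospondins 1 and 2 are trimers that share a set of type 1 repeats, the modules through which they bind CD36 and inhibit the growth of blood vessels. Thrombospondins 3, 4 and 5 (Comp) are pentamers that lack these repeats and are best known from cartilage, tendon and muscle. Receptors reported for members of the family include CD47, integrins and the LRP1-calreticulin complex, and not every member is known to bind each of them. In colon tumours thrombospondins are products of both the cancer cells and the stroma.

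Signals are log2 units as deposited. The 75th percentile of the negative control features, known by their identifiers, served as a background level, and it was 6.42 in clone 1, 6.49 in clone 2, 6.56 in MOCK and 6.29 in WT. The arrays did not share a distribution, and the median difference over all probe sets, knockout minus control, was 0.18 log2 units as deposited and -0.02 after quantile normalization. Mgat5 itself stood at 7.46 in clone 1 and 7.57 in clone 2, against 8.19 in MOCK and 8.27 in WT, lower in each clone than in each control, and the position of its probes relative to the edited site was not examined. Of 12 intestinal epithelial markers measured, 0 passed the background level on any array, Krt8 being the brightest at 5.69 in clone 1 and 5.19 in clone 2, against 5.53 in MOCK and 5.86 in WT, and Cdx1 next. The defining epithelial markers of the labelled tumour type were thus at background on all arrays.

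Thbs2, which encodes an inhibitor of blood vessel growth, was at background in clone 1 and bright on the other 3 arrays. Its signal was 4.28 in clone 1 and 13.55 in clone 2, against 11.50 in MOCK and 12.51 in WT. Clone 1 thus lay below its background level, where 30.6% of the negative control features were lower still, while in the other 3 arrays Thbs2 lay above at least 98.5% of them. In place of a fold, which background would set, the mean of the controls was at least 48.1-fold above the background level of clone 1, and clone 2 was at least 140-fold above it. After quantile normalization the signals were 4.34 in clone 1 and 13.28 in clone 2, against 11.43 in MOCK and 13.17 in WT.

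The clones therefore lay on opposite sides of the controls as deposited. The knockout mean was 8.91 ± 6.55 log2 units and the control mean 12.01 ± 0.71 (SD, n = 2 each), a difference of -3.09 that describes neither clone. Clone 1 minus the mean of the controls was -7.72, and clone 2 minus the same mean was 1.54. Clone 2 stood 1.04 log2 units above WT as deposited but only 0.11 after quantile normalization, while MOCK lay 1.01 below WT as deposited and 1.74 below it after quantile normalization. The distance between clone 2 and WT thus depended on the scaling, while clone 1 was the lowest array on both scales. The differences of both clones share the same controls. In bulk samples such as these, fewer cells with a transcript and less of it per cell cannot be told apart.

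**Figure D1:**
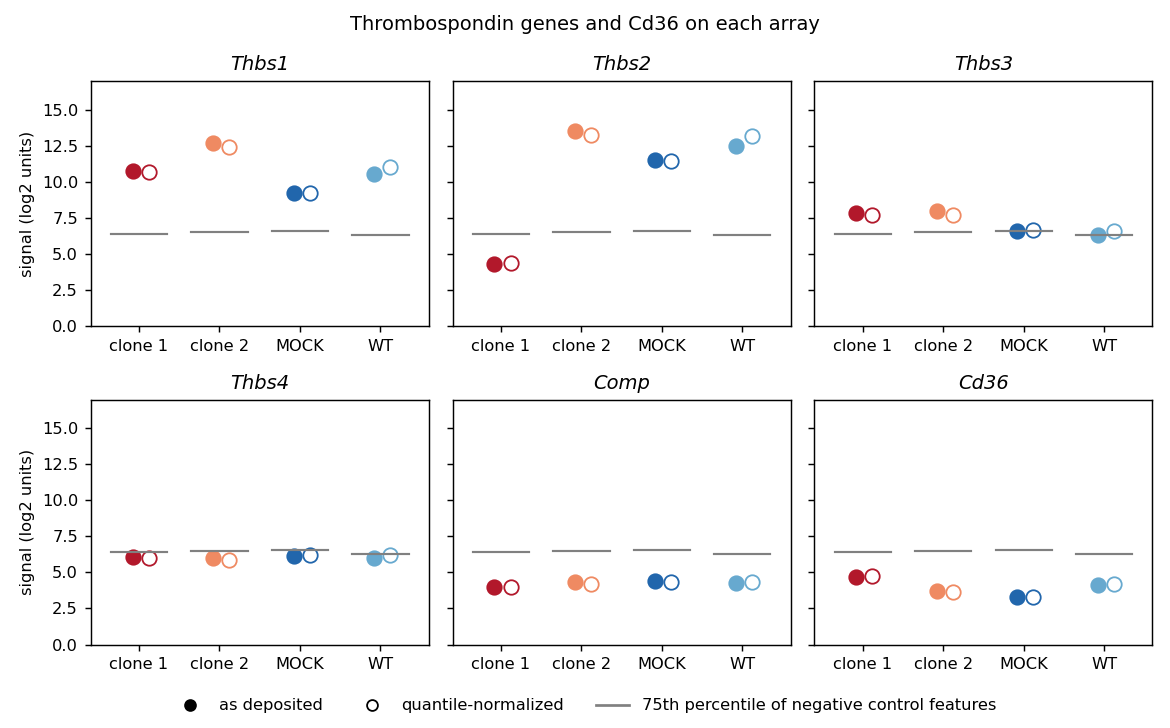
Signal in log2 units (vertical axis) of the 6 genes on each of the 4 arrays (horizontal axis), as deposited in filled circles and quantile-normalized in open circles, with a grey line at the 75th percentile of the negative control features of each array. Thbs2 in clone 1, at 4.28, is the point of the Thbs1, Thbs2 and Thbs3 panels that lies below the line, and all points of Thbs4, Comp and Cd36 lie below it as deposited.

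No other probe set lay as far below the remaining arrays in clone 1 as that of Thbs2. It lay 7.22 log2 units below the lowest of the other 3 arrays, and the next was Gvin1, an interferon-inducible GTPase gene, at 3.70 below. Only 128 of the 22206 probe sets (0.576%) lay 1 log2 unit or more below all other arrays in clone 1, 9 lay 2 or more below and 1, Thbs2, lay 4 or more below. After quantile normalization the gap of Thbs2 was 7.09 log2 units and again ranked 1, with 0.694% of probe sets at least 1 log2 unit below. The gap was what singled the gene out for description, and no test is attached to it.

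**Figure D2:**
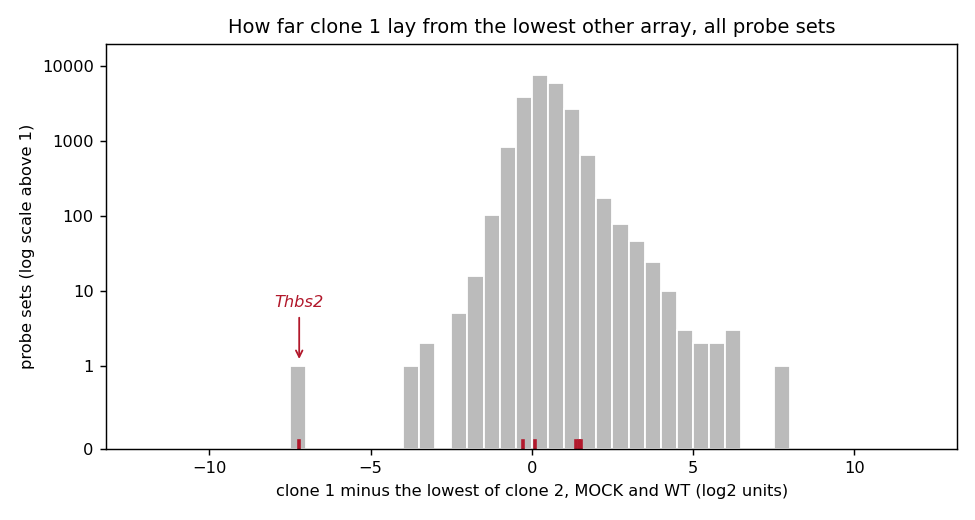
Number of probe sets (vertical axis, log scale above 1) by the distance of clone 1 from the lowest of clone 2, MOCK and WT (horizontal axis, log2 units, bins of 0.5), with red ticks at the 6 genes. Thbs2 stands alone at -7.22, and the next probe set is at -3.70.

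The 250 bases upstream of the Thbs2 start site are shown because the whole signal of the gene was missing in clone 1, and those of Thbs3 because its signal was higher in both clones. RefSeq (GRCm38.p6) held such a window for 4 of the 6 genes. Thbs2 lies at chr17:14694263-14694512 on the minus strand and Thbs3 at chr3:89214930-89215179 on the plus strand, both read 5′ to 3′ towards the gene, with capitals at matches to the CCAAT box (CCAAT), the TATA box (TATAAA), the GC box (GGGCGG), the E-box (CACGTG) or the AP-1 site (TGANTCA) on either strand.
Thbs2: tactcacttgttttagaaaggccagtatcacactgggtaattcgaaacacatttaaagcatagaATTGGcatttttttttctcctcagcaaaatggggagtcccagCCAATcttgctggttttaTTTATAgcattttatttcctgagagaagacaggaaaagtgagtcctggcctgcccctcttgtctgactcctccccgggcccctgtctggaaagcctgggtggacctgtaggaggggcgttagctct
Thbs3: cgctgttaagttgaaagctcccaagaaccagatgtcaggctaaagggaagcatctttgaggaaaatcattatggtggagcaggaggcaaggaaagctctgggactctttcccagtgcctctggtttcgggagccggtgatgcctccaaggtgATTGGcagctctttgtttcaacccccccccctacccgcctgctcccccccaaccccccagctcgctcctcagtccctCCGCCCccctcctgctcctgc
The Thbs2 window held 2 CCAAT matches, beginning 186 bases before the start on the opposite strand and 144 on the gene's own strand. It also held 1 TATAAA match at 126 on the opposite strand. The Thbs3 window held 1 CCAAT match at 98 and 1 GGGCGG match at 21, both on the opposite strand. Of all 32851 windows of this length, 33.8% held the CCAAT box, 12.4% the TATA box, 32.7% the GC box, 6.02% the E-box and 6.75% the AP-1 site, on either strand. The matches did not overlap one another. The Thbs2 window had 3 CpG dinucleotides and the Thbs3 window 6, beside a median of 6 over all windows. These are matches of letters, and no factor or methylation was measured here.

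The neighbours of Thbs2 on chromosome 17 that could be read had no such low signal in clone 1. The 4 measured genes on each side were named for their position, outside the rule for named genes. Of these 8, 0 lay 1 log2 unit or more below all other arrays in clone 1, beside 0.576% of all probe sets. Only 3 of the 8 rose above background on any array, all on the side of higher coordinates. The rest could not show such a drop. Phf10, which encodes a subunit of a chromatin remodelling complex, stood at 13.36 in clone 1 and 12.89 in clone 2, against 12.85 in MOCK and 11.95 in WT. 1600012H06Rik, the nearest gene above background on the side of higher coordinates and 2 measured genes away, stood at 9.16 in clone 1 and 9.68 in clone 2, against 8.34 in MOCK and 8.49 in WT. On the other side the nearest gene above background on all arrays was Afdn, which encodes the junction protein afadin, 5 measured genes away, at 8.81 in clone 1 and 7.79 in clone 2, against 8.79 in MOCK and 8.07 in WT. The genes directly beside Thbs2, 4930474M22Rik and Wdr27, lay below background on all 4 arrays. So did Smoc2, which encodes a matricellular protein, Dact2 and Gm7168. The array thus carries no reading between Thbs2 and those farther genes. Whether the Thbs2 locus itself was altered in clone 1 was not tested.

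**Figure D3:**
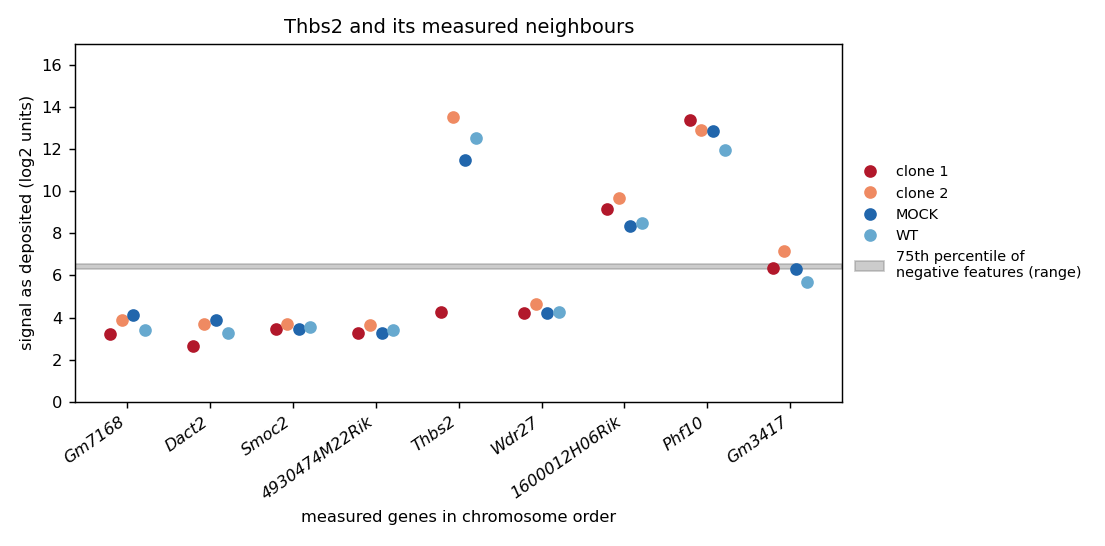
Signal as deposited in log2 units (vertical axis) of Thbs2 and the 4 measured genes on either side in chromosome order (horizontal axis), with 1 point per array and a grey band for the range of the background level. Thbs2 in clone 1 lies at 4.28 while Phf10 and 1600012H06Rik keep 13.36 and 9.16 in the same clone.

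Thbs1, the other family member with type 1 repeats and an activator of latent TGF-beta, kept a signal well above background on every array. It stood at 10.76 in clone 1 and 12.68 in clone 2, against 9.24 in MOCK and 10.52 in WT. Clone 2 was the highest array and MOCK the lowest, and clone 1 and WT lay within 0.25 log2 units of each other. The knockout mean was 11.72 ± 1.36 and the control mean 9.88 ± 0.90 (SD, n = 2 each), a difference of 1.84 log2 units or 3.59-fold. After quantile normalization the order of clone 1 and WT turned, with 10.65 in clone 1 and 12.39 in clone 2, against 9.26 in MOCK and 11.02 in WT, so the groups overlapped. The difference was then 1.38 log2 units, about the size of the SD within each group, 1.23 in the knockout and 1.24 in the controls.

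The controls also differed from each other in Thbs1. MOCK minus WT was -1.28 log2 units as deposited, and clone 1 minus clone 2 was -1.92. After quantile normalization these differences were -1.76 and -1.74, so the controls then differed about as much as the clones. MOCK was 1.28 log2 units below every other array, a distance that 18 of 22206 probe sets reached or passed in MOCK, and 47 probe sets (0.212%) were 1 log2 unit or more below all others there. Clone 2 was 1.92 log2 units above every other array, a distance reached by 179 probe sets. Both Thbs1 and Thbs2 were among the 814 probe sets (3.67%) at least 1 log2 unit above all other arrays in clone 2, Thbs2 at 1.04. After quantile normalization Thbs1 kept such a gap, at 1.37, and Thbs2 did not, at 0.11, beside 2.16% of probe sets. Leaving out clone 2 lowered the Thbs1 difference to 0.89 log2 units, and leaving out clone 1 raised it to 2.80.

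Thbs3, a pentameric member expressed in bone and cartilage, was, of the 3 genes above background, the one whose clones differed least from each other. It stood at 7.81 in clone 1 and 7.99 in clone 2, against 6.59 in MOCK and 6.34 in WT. The groups did not overlap, and the difference of 1.44 log2 units lay above the SD within the groups, 0.13 in the knockout and 0.17 in the controls (n = 2 each). After quantile normalization the signals were 7.71 in clone 1 and 7.72 in clone 2, against 6.64 in MOCK and 6.61 in WT, a difference of 1.08. The controls lay barely above the background level, with 75.4% of the negative control features lower in MOCK and 75.9% in WT, so the 2.71-fold difference of the signals as deposited rests on control readings close to background. Mtx1, which lies beside Thbs3 and is read in the opposite direction, stood at 9.90 in clone 1 and 10.00 in clone 2, against 9.73 in MOCK and 9.64 in WT.

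Thbs4, a matrix protein of tendon and muscle, gave no signal above background. It stood at 6.06 in clone 1 and 6.02 in clone 2, against 6.16 in MOCK and 5.97 in WT, a range of 0.18 log2 units over the 4 arrays. Between 66.6% and 69.2% of the negative control features were lower. Comp, the cartilage oligomeric matrix protein, stood at 3.96 in clone 1 and 4.31 in clone 2, against 4.37 in MOCK and 4.25 in WT, with at most 30.5% of the negative control features lower on any array. Cd36, the scavenger receptor through which thrombospondins 1 and 2 act on endothelial cells and which also takes up fatty acids, stood at 4.69 in clone 1 and 3.74 in clone 2, against 3.33 in MOCK and 4.12 in WT. At most 39.7% of the negative control features were lower than Cd36, so its range of 1.36 log2 units lay wholly within background. None of these 3 genes passed the background level on any of the 4 arrays, and differences between their arrays are not read.

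As deposited, 2 of the 6 genes, Thbs1 and Thbs3, lay above both controls in each clone, beside 27.8% of all probe sets, and 0 were lower, beside 11.7%. After quantile normalization Thbs3 was the 1 gene higher in both clones, beside 19.2% of all probe sets. Thbs4 and Comp then became lower in both clones, beside 21.3%, with signals below background throughout. These shares describe the family, since its levels were known when it was chosen.

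The genes whose profile over the 4 arrays lay closest to that of Thbs2 still lay far from it. The distance used was not scaled by the range of a gene over the arrays, which was 9.26 log2 units for Thbs2. Closeness was the Euclidean distance between log2 signals centred on each gene's mean, over n = 4 arrays and 18457 other named genes, and with 4 arrays it is a description only. Gvin1 was closest, at a distance of 3.53 log2 units, with 3.81 in clone 1 and 8.68 in clone 2, against 7.51 in MOCK and 7.92 in WT. Pon3, a lactonase of the paraoxonase family, was at 3.65, with 4.51 in clone 1 and 10.60 in clone 2, against 8.71 in MOCK and 7.63 in WT. Mtmr9, a myotubularin-related protein, was at 4.18, with 3.48 in clone 1 and 7.27 in clone 2, against 6.60 in MOCK and 7.21 in WT. All 3 genes lay below background in clone 1 alone, like Thbs2. They also had the next largest gaps below the other arrays in clone 1, so their closeness restates that gap. Mmp2 came next, at 4.70. It encodes gelatinase A, a matrix metalloproteinase that thrombospondin 2 is known to bind and deliver to LRP1 for uptake. Mmp2 stood at 9.86 in clone 1 and 14.29 in clone 2, against 11.61 in MOCK and 12.28 in WT, the same order of the arrays as Thbs2 but above background in clone 1. Itgbl1, which encodes a secreted integrin-beta-like protein, was at a distance of 4.94 and stood at 4.90 in clone 1 and 9.51 in clone 2, against 6.11 in MOCK and 7.12 in WT.

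Profiles lay closer to Thbs1 and Thbs3, whose signals as deposited ranged over only 3.44 and 1.65 log2 units. With a distance not scaled by range, the 3 genes cannot be compared in closeness. Dhrs3, a retinaldehyde reductase, lay 0.56 log2 units from Thbs1, Car5b, a mitochondrial carbonic anhydrase, 0.59, and Sar1b, a GTPase of vesicle export from the endoplasmic reticulum, 0.61. Of these, Dhrs3 and Car5b passed the background level in clone 2 alone. Tstd2 lay 0.034 log2 units from Thbs3, Hsdl2 0.065 and Ghr, the growth hormone receptor, 0.067. These orders depended on the scaling. After quantile normalization Tstd2 was at 0.198 and ranked 25, Hsdl2 at 0.122 and ranked 10, and Ghr at 0.109 and ranked 5, while Dhrs3 ranked 9 for Thbs1. For Thbs2 the nearest 4 genes kept their ranks, and Itgbl1 ranked 8. Ghr stood at 10.65 in clone 1 and 10.81 in clone 2, against 9.47 in MOCK and 9.13 in WT.

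Most receptors for thrombospondins other than CD36 were above background. Of 22 receptors and co-receptors measured, 15 lay above background on all arrays and 16 on at least 1. Limma called 0 of the 22 at an adjusted p under 0.05, beside 0.0405% of all probe sets as deposited and 0.0045% after quantile normalization, with 2 at an unadjusted p under 0.05, beside 8.75% of all probe sets. Of the 22, 18 were higher and 4 lower as deposited, and 12 were higher and 10 lower after quantile normalization, where 65.1% and 48.3% of all probe sets were higher. The median difference was 0.41 log2 units on the deposited scale and 0.11 on the quantile scale, beside 0.18 and -0.02 over all probe sets. Cd47, which encodes the receptor for the carboxy-terminal domain of thrombospondins and the "don't eat me" ligand of SIRP-alpha, stood at 13.84 in clone 1 and 14.69 in clone 2, against 13.81 in MOCK and 12.96 in WT (limma adjusted p = 0.625). Itga6, a laminin receptor subunit that also binds thrombospondins, stood at 9.94 in clone 1 and 9.16 in clone 2, against 8.88 in MOCK and 7.60 in WT (limma adjusted p = 0.482). For Itga6 the groups did not overlap as deposited and overlapped after quantile normalization.

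Vldlr, a lipoprotein receptor that binds thrombospondin 1, stood at 12.43 in clone 1 and 12.39 in clone 2, against 12.12 in MOCK and 10.85 in WT (limma adjusted p = 0.609). Itga5, the fibronectin receptor subunit, stood at 7.02 in clone 1 and 7.31 in clone 2, against 6.10 in MOCK and 6.16 in WT, both below background (limma adjusted p = 0.459). The lowest reading of Vldlr, Cd47 and Itga6 as deposited was that of WT. After quantile normalization WT was still the lowest for Vldlr, at 11.36 beside 12.03 in MOCK, and for Itga6, at 7.94 beside 8.90 in MOCK, while for Cd47 it was 13.65 beside 13.60 in MOCK.

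Among the matrix, protease and growth factor partners, limma called 0 of 28 measured genes, beside 0.0405% of all probe sets, and 6 had an unadjusted p under 0.05, beside 8.75%. Of the 28, 15 lay above background on at least 1 array. As deposited 19 were higher and 9 lower, beside 65.1% of all probe sets higher. After quantile normalization 15 were higher and 13 lower, beside 48.3%. The median difference of the list was 0.14 log2 units as deposited and 0.04 on the quantile scale. It was 0.53 without clone 1, -0.10 without clone 2 and 0.31 without MOCK, so its sign turned with clone 2. Dcn, which encodes the collagen-binding proteoglycan decorin, had the largest difference, with 8.94 in clone 1 and 11.18 in clone 2, against 12.95 in MOCK and 13.61 in WT (-3.22 log2 units, SE 0.63, limma adjusted p = 0.121). Both clones lay below both controls, also after quantile normalization, where the difference was -3.72. Tnfaip6, whose hyaluronan-binding product TSG-6 also binds thrombospondin 1, stood at 8.62 in clone 1 and 9.38 in clone 2, against 6.43 in MOCK and 7.11 in WT (limma adjusted p = 0.121).

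Tgfb2, a ligand of the TGF-beta family kept latent in the matrix, stood at 8.17 in clone 1 and 8.92 in clone 2, against 7.08 in MOCK and 7.27 in WT (limma adjusted p = 0.353). Adamts1, a protease that carries type 1 repeats and cleaves thrombospondins 1 and 2, stood at 11.59 in clone 1 and 11.08 in clone 2, against 10.21 in MOCK and 9.79 in WT (limma adjusted p = 0.353). For both genes the clones lay above the controls on both scales.

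In this list of partners 3 of 28 genes lay 1 log2 unit or more below all other arrays in clone 1, beside 0.576% of all probe sets. They were Mmp2, Dcn and Col5a1, a fibrillar collagen chain that stood at 5.12 in clone 1 and 8.85 in clone 2, against 6.24 in MOCK and 6.23 in WT, above background in clone 2 only. Mmp2 and Col5a1, together with Mmp9, Mmp14 and Col1a1, were the 5 genes of the list that lay as far above all other arrays in clone 2, beside 3.67% of all probe sets, and Col1a1 was below background on all 4. Mmp14, which encodes the membrane protease that activates MMP2, stood at 11.44 in clone 1 and 13.07 in clone 2, against 10.94 in MOCK and 11.19 in WT. Col5a1, Mmp9, Mmp14 and Col1a1 were named after their values were seen. The mean log2 signal over 11 markers of fibroblasts and mural cells was 5.48 in clone 1 and 6.56 in clone 2, against 5.86 in MOCK and 5.73 in WT. Without Dcn, which stands in both lists, it was 5.14 in clone 1 and 6.10 in clone 2, against 5.15 in MOCK and 4.94 in WT, so clone 2 was highest either way and clone 1 was lowest only with Dcn. Of the 11 markers, 7 lay below background on all 4 arrays, so both means rest largely on background readings. The part of this list in the result was not tested, and the mean without Dcn was added after the values were seen.

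Other proteins with thrombospondin type 1 repeats were mostly silent, with 42 of 58 measured genes below background on all arrays. Limma called 0 of the 58, beside 0.0405% of all probe sets, and 12 had an unadjusted p under 0.05, beside 8.75%. Of the 58, 36 were higher and 22 lower as deposited, and 33 were higher and 25 lower after quantile normalization, beside 65.1% and 48.3% of all probe sets higher. The median was 0.13 log2 units as deposited and 0.06 on the quantile scale, and it was 0.30 without clone 1, 0.09 without clone 2 and 0.08 without MOCK. Rspo3, whose secreted product strengthens Wnt signals, stood at 9.26 in clone 1 and 7.75 in clone 2, against 5.16 in MOCK and 5.01 in WT, both below background, so the knockout mean was at least 4.23-fold above the background level of the controls (limma adjusted p = 0.0523). Sema5a, a transmembrane semaphorin with type 1 repeats, stood at 7.82 in clone 1 and 8.14 in clone 2, against 10.52 in MOCK and 9.97 in WT (limma adjusted p = 0.0808). The clones lay on 1 side of the controls for both genes, after quantile normalization as well.

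Spon2, a secreted F-spondin family protein, stood at 5.44 in clone 1 and 7.05 in clone 2, against 4.05 in MOCK and 3.91 in WT, above background in clone 2 alone (limma adjusted p = 0.196). Ccn3, a matricellular protein of the CCN family, stood at 10.82 in clone 1 and 9.38 in clone 2, against 7.95 in MOCK and 8.56 in WT (limma adjusted p = 0.308). Unlike Thbs2, neither of these genes had clones on opposite sides of the controls.

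**Figure D4:**
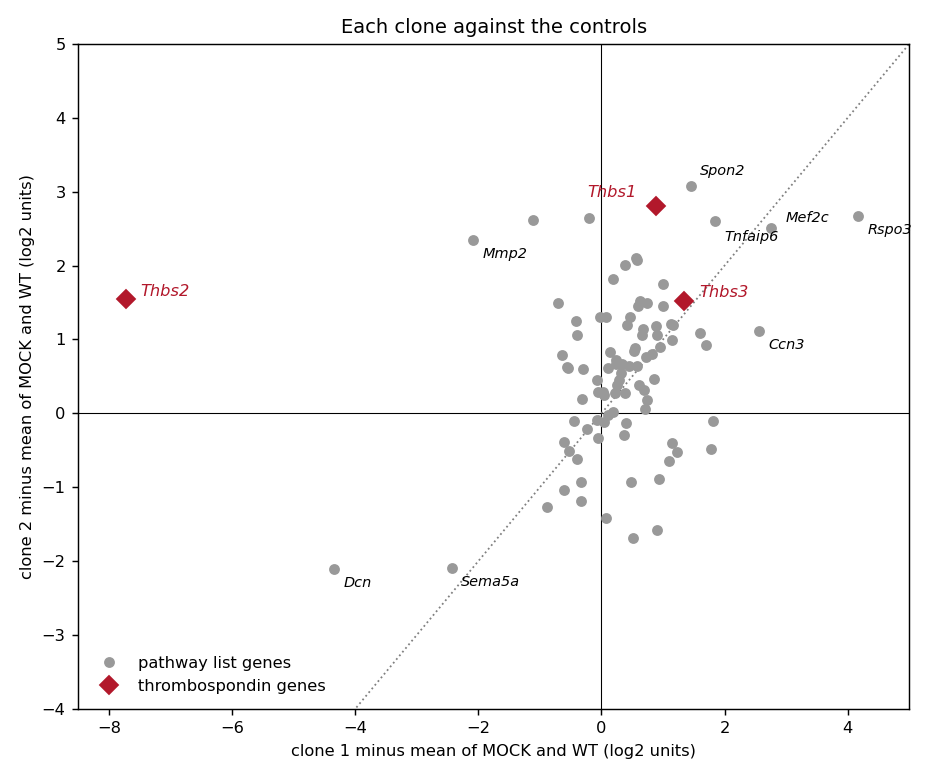
Difference of clone 2 (vertical axis) and of clone 1 (horizontal axis) from the mean of MOCK and WT, in log2 units as deposited, for Thbs1, Thbs2 and Thbs3 (red diamonds) and for the 92 genes of the pathway lists above background on at least 1 array (grey circles), with a dotted line of equal differences. Both axes share the same controls, and Thbs2 lies apart at -7.72 and 1.54.

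Type 1 repeats are modified in the endoplasmic reticulum by O-fucose, which POFUT2 adds and B3GLCT extends with glucose, and by C-mannose, which the DPY19L enzymes add. Of 12 genes of these steps and of their sugar supply, 10 lay above background on at least 1 array and limma called 0, beside 0.0405% of all probe sets, and 2 had an unadjusted p under 0.05, beside 8.75%. Of the 12, 9 were higher and 3 lower as deposited, beside 65.1% of all probe sets higher. After quantile normalization 8 were higher and 4 lower, beside 48.3%. The median of the 12 stood at 0.34 log2 units as deposited and 0.04 on the quantile scale, and at 0.71 without clone 2. The 4 genes with the largest differences belonged to sugar supply. Slc35c2, a Golgi transporter linked to GDP-fucose, stood at 11.26 in clone 1 and 11.30 in clone 2, against 10.27 in MOCK and 9.94 in WT (limma adjusted p = 0.383). Dpm2, a subunit of dolichol phosphate mannose synthase, stood at 8.36 in clone 1 and 8.53 in clone 2, against 7.65 in MOCK and 7.27 in WT (limma adjusted p = 0.502).

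Gfus, which makes GDP-fucose, stood at 7.91 in clone 1 and 7.89 in clone 2, against 7.13 in MOCK and 7.06 in WT (limma adjusted p = 0.575). Slc35c1, the GDP-fucose transporter of the Golgi, stood at 5.50 in clone 1 and 7.13 in clone 2, against 5.49 in MOCK and 5.15 in WT, above background in clone 2 alone (limma adjusted p = 0.633). Dpm2 and Gfus, like Slc35c2, kept the clones above the controls after quantile normalization.

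With Cd36 itself at background, 14 of 21 measured genes of fatty acid uptake and use lay above background on at least 1 array. Limma called 0 of the 21, beside 0.0405% of all probe sets, and 2 had an unadjusted p under 0.05, beside 8.75%, a share near that of all probe sets. As deposited 17 were higher and 4 lower, beside 65.1% of all probe sets higher. After quantile normalization 8 were higher and 13 lower, beside 48.3%. The direction of the list thus turned with the scaling, as did that of all probe sets. The median of the list moved to -0.03 from 0.32 log2 units as deposited, beside -0.02 from 0.18 over all probe sets. Fabp4, a fatty acid binding protein of adipocytes and macrophages, stood at 6.52 in clone 1 and 6.97 in clone 2, against 5.69 in MOCK and 5.36 in WT, both below background (limma adjusted p = 0.382). Cpt1a, the gate of mitochondrial fatty acid oxidation, stood at 7.77 in clone 1 and 8.65 in clone 2, against 7.59 in MOCK and 6.68 in WT (limma adjusted p = 0.545).

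Acsl4, which activates polyunsaturated fatty acids, stood at 11.94 in clone 1 and 11.36 in clone 2, against 12.36 in MOCK and 12.20 in WT (limma adjusted p = 0.694). Cav1, a caveolar protein needed for CD36 at the cell surface, stood at 8.16 in clone 1 and 8.17 in clone 2, against 9.01 in MOCK and 8.37 in WT (limma adjusted p = 0.746). Both were lower in each clone than in each control, on either scale.

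Of 23 measured genes reported to regulate thrombospondin genes, 22 lay above background on at least 1 array, and limma called 0, beside 0.0405% of all probe sets, and 3 had an unadjusted p under 0.05, beside 8.75%. As deposited 19 were higher and 4 lower, beside 65.1% of all probe sets higher. After quantile normalization 10 were higher and 13 lower, beside 48.3%. The medians of the list were 0.24 and -0.06 log2 units, beside 0.18 and -0.02 over all probe sets. As deposited the median of the list was 0.0045 without WT, 0.45 without MOCK and 0.62 without clone 1. Mef2c, a MADS box transcription factor, stood at 9.98 in clone 1 and 9.74 in clone 2, against 6.29 in MOCK and 8.16 in WT (limma adjusted p = 0.155). Myc, known to repress Thbs1 in several tumour models, stood at 15.15 in clone 1 and 16.01 in clone 2, against 15.03 in MOCK and 14.10 in WT (limma adjusted p = 0.569), and overlapped after quantile normalization.

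Atf4, the effector of the integrated stress response, stood at 15.62 in clone 1 and 15.45 in clone 2, against 15.02 in MOCK and 13.90 in WT (limma adjusted p = 0.531). Fos, a subunit of AP-1, stood at 8.93 in clone 1 and 8.55 in clone 2, against 8.79 in MOCK and 10.84 in WT (limma adjusted p = 0.648). The high Fos reading was that of WT, and MOCK lay between the clones as deposited.

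Over all pathway lists 163 genes were measured and limma called 0 as deposited, beside 0.0405% of all probe sets. An unadjusted p under 0.05 was reached by 26 (16.0%), beside 8.75% of all probe sets. The lists were chosen with earlier results of these data known, so this share is a description only. Most markers of other cell types lay below background on all arrays, though Sox9, Dcn and Pdgfrb were bright. Of the endothelial markers 0 of 8 and of the megakaryocyte and platelet markers 0 of 5 lay above background on any array, while 1 of 8 macrophage and leukocyte markers did, namely Cd14, at 7.45 in clone 1 and 7.08 in clone 2, against 7.80 in MOCK and 7.92 in WT. The brightest of those at background were Vwf and Tie1, Itga2b and Gp9, and Fcgr1. Adipocyte markers passed in 2 of 6 cases, Fabp4 and Lipe, cartilage markers in 1 of 7, Sox9 but not Acan, and fibroblast and mural cell markers in 4 of 11, Dcn and Pdgfrb on all arrays. Pdgfrb stood at 11.70 in clone 1 and 12.02 in clone 2, against 11.47 in MOCK and 11.42 in WT. Sox9 stood at 13.56 in clone 1 and 14.75 in clone 2, against 14.29 in MOCK and 13.96 in WT.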

How the data were processed

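RNA of 4 MC38 samples was hybridised to 1 Clariom S array each. The authors derived the values with Transcriptome Analysis Console, per the submitters' processing notes. The deposited values are log2 signals, a scale read from their range. For its version, normalization method and build, the sources used here give nothing. Of 28846 features, 6640 controls were left out, and 22206 probe sets were kept without a filter. Platform annotation named 19572 of them, updated through the RefSeq table of GRCm38.p6. The comparison was limma 3.58.1 (R 4.3.3, lmFit and eBayes, knockout minus control, Benjamini-Hochberg over all probe sets, called at an adjusted p under 0.05), tested on simulated data. The 6 members, the 6 pathway lists and the 7 marker lists were chosen with earlier results of these data known. From each pathway list the text names called genes and the 4 largest differences among genes above background, plus the genes nearest in profile, the neighbours by position and the 2 brightest of each marker list. Alternatives were quantile normalization, median centring, filters on dim probe sets, other variance models and each array left out. No label says that arrays came from separate cultures or batches, so p-values measure the spread between these 4 arrays, whose number limits the precision. No paired analysis was possible because the labels number the clones only.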

Additional observations from a re-analysis of the deposited data

How the results depend on the processing

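No test was attached to the 6 family genes. Thbs2 minus control ran from -7.72 without clone 2 to 1.54 without clone 1, so its sign turned with clone 1, while its gap in clone 1 stayed between -8.23 and -7.22 when any other array was left out. Thbs1 ran from 0.89 to 2.80 and Thbs3 from 1.31 to 1.56 with each array left out. After quantile normalization Thbs3 was 1.08 and Thbs4, at background, -0.28, beside -0.17 with median centring. Distances from the lowest other array at background moved too: Comp was at -0.18 (median centring) and -0.21 (quantile), -0.35 to -0.29 with arrays left out, Thbs4 at 0.21 (median centring), and Cd36 at 0.95 to 1.36 with arrays left out. Probe sets 1 log2 unit below all others in clone 1 numbered 201 to 360 with another array left out, where fewer arrays are compared. The number called by limma was 9, and 1 after quantile normalization, 125 and 196 with filters at the 25th percentile and the median, 340 with trend and robust, and 0 to 529 with each array left out (0 without WT, 1 without MOCK, 149 without clone 2, 529 without clone 1). The partners gave 2 calls with either filter or with trend and robust and 0 to 6 with an array left out. The type 1 repeat list gave 3 with either filter, 5 with trend and robust, 1 with array weights and 0 to 4 with an array left out, and its median was 0.50 with the filter at the median. The regulators gave 1 call (Mef2c) with either filter or with trend and robust, and 0 to 1 with an array left out. The fatty acid list median was -0.032 after quantile normalization. The adjusted p of Rspo3 ran from 1.65e-09 to 0.906 over the alternatives, that of Dcn from 2.69e-06 to 1.00, of Sema5a from 0.00095 to 0.906, of Tnfaip6 from 0.000916 to 0.906, and of Mef2c from 3.61e-05 to 0.560. For these 5 genes and Ccn3 and Spon2 the direction was the same in every alternative run. The causes of these changes were not tested, and signals near background limit Thbs3 in the controls and Thbs4, Comp and Cd36 throughout.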

Other observations

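Of the genes directly next to a family member, 2 had their lowest signal in clone 2 and their highest in clone 1. They were named after their values were seen, and the share of all probe sets as low in clone 2 was not computed. Serinc5, a membrane protein next to Thbs4 on chromosome 13, stood at 8.53 in clone 1 and 5.57 in clone 2, against 6.68 in MOCK and 7.28 in WT. Its reading in clone 2 was below the background level of that array, 6.49. Sema3c, a secreted semaphorin next to Cd36 on chromosome 5, stood at 10.74 in clone 1 and 8.22 in clone 2, against 9.49 in MOCK and 9.99 in WT. In Serinc5 and Sema3c the clones stood in the reverse order of Thbs2, and a relation to Thbs2 was not tested. Thbs4 and Cd36 themselves were at background.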
